A study of Mus musculus with 4 samples.

Results

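The genes described here are the Wnt ligands, their Frizzled receptors, the secreted antagonists and R-spondins that act on them, and the feedback and transcription factors at the end of the pathway. They were picked by gene symbol alone, as every probe set whose single annotated symbol named a Wnt, Fzd, Sfrp, Dkk, Rspo, Axin, Nkd, Tcf7, Frzb, Lef1 or Sp5 gene. That gave 47 genes on 71 probe sets, of 12393 genes with 1 symbol on the arrays, and each gene was read at its probe set with the highest mean. The 47 were 19 ligands, 9 receptors, 9 antagonists, 2 R-spondins, 4 feedback genes (Axin1, Axin2, Nkd1, Nkd2) and 4 transcription factors (Lef1, Tcf7l1, Tcf7l2, Sp5). Fzd10, Rspo3, Rspo4 and Tcf7 were not analysed here.

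The samples were P19 cells, a mouse embryonal carcinoma line that takes on neural fates when aggregated in retinoic acid. The LIN28A cells were P19 cells with constitutive expression of human LIN28A, which binds RNA and keeps let-7 microRNAs from maturing, and the control cells were unmodified P19 cells. Each line spent 4 days as aggregates with all-trans retinoic acid at 5e-07 M, in medium with fetal bovine and bovine serum, and was measured on 2 arrays. The promoter that drives LIN28A, and whether the line is 1 clone, are not given in the sources used here.

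Wnt proteins are lipid-modified secreted signals that bind Frizzled receptors together with Lrp5 or Lrp6. Binding stops the Axin complex from marking beta-catenin for destruction, and beta-catenin then works with TCF/LEF factors in the nucleus. Sfrp and Frzb proteins bind Wnts outside the cell, Dkk proteins block the Lrp coreceptors, and R-spondins raise receptor levels. In the embryo the pathway drives posterior and mesodermal fates, patterns the dorsal neural tube and keeps neural progenitors dividing.

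Arrays with the same replicate number were closer to each other than arrays of the same line. Over the probe sets, which are not independent replicates, Pearson's r of log2 values was 0.98 between lines for either number, against 0.96 between the LIN28A arrays and 0.95 between the control arrays. The share of probe sets under an intensity of 16 was 42.3% and 40.4% in the LIN28A arrays, against 35.7% and 39.4% in the control arrays. Control array 1 also had the highest 3' to 5' ratio for beta-actin, 4.71 against 2.76 to 3.37 in the others. The Lin28a probe sets are annotated to the mouse gene, and whether they take up the human transgene was not tested. The brighter of them read 56.1 and 37.5 in LIN28A cells, against 30.7 and 76.2 in control cells, and the other read 7.00 and 8.60 in LIN28A cells, against 28.8 and 15.5 in control cells. Sox2 read 1557 and 1295 in LIN28A cells, against 1902 and 1697 in control cells. Of the markers of embryonal carcinoma cells, Zfp42 stayed at 5.80 or below on all arrays, and Pou5f1 followed the replicate number, with 28.7 and 775 in LIN28A cells, against 30.3 and 374 in control cells.

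No Wnt pathway gene differed between the cell lines past the threshold. Limma's test called 0 of the 33 members that passed the filter on low values (adjusted p = 1 for each), and 0% of the 15838 tested probe sets in each direction. At an unadjusted p under 0.05 it found 0 members, against 0.442% of probe sets higher and 1.21% lower. This fit did not model the replicate number, so the difference between numbers stayed in its error and in the SE values below. For Wnt1 the SE was 0.29, against 0.21 with the number as a block, a setting given in the closing section. For 7 of the 47 members both LIN28A arrays exceeded both control arrays, as they did for 10.0% of all genes, and for 12 members both were lower, as for 18.3% of all genes. The median log2 difference was -0.07 over the members and -0.06 over all genes. These counts depend on scaling. With each array centred on its median, which moves the median of all genes by 0.13, 11 members lay above and 3 below, against 17.9% and 7.50% of all genes. With quantile normalization 13 lay above and 8 below, against 14.9% and 14%, and the median of the members was 0.06 under either.

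**Figure D1:**
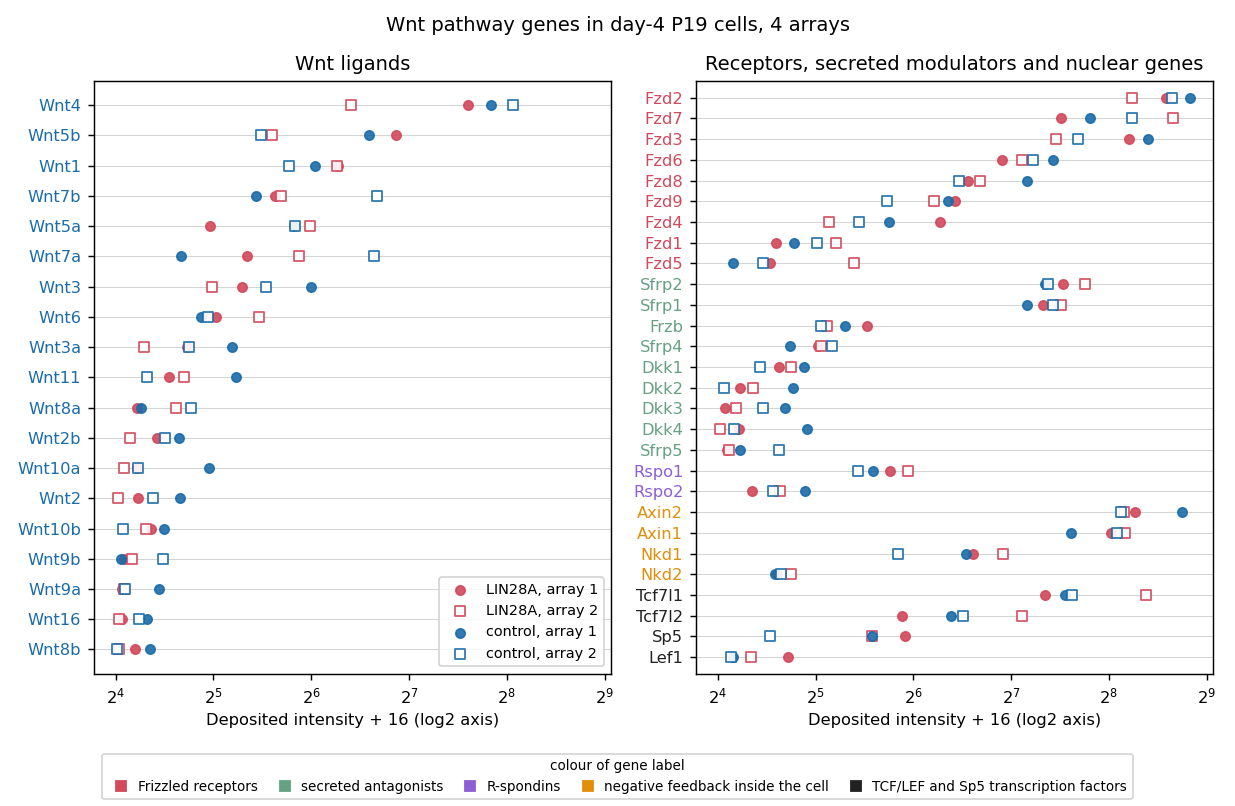
Deposited intensity plus 16 (log2 axis) of the 47 Wnt pathway genes, with 1 row per gene and 1 point per array, red for LIN28A and blue for control cells, filled circles for replicate number 1 and open squares for number 2. Wnt3, Wnt3a and Wnt4 have both red points left of both blue points, while Wnt7a and Wnt7b have the control points at either end.

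The ligands had the lowest median of the 6 classes, except among genes past the 50th percentile of level, where the Frizzled median was -0.20 and the ligand median -0.10. Of the 19 ligands, 15 had a difference below 0, as did 59.9% of all genes. For 8 ligands both LIN28A arrays lay below both control arrays (18.3% of all genes did) and for 2 they lay above (10.0% did). However, 9 of the ligands fell under the filter on low values. Among all genes under it, 72.7% had a difference below 0 and 22.5% lay below on both arrays. Past the filter, 3 of 10 ligands lay below on both arrays, against 16.6% of such genes. The median log2 difference of the 19 ligands was -0.20, with -0.23 within replicate number 1 and -0.16 within number 2. It stayed below 0 under quantile normalization (-0.11) and median centring (-0.07). With the arrays centred on their medians 1 ligand, Wnt4, lay below on both arrays (7.50% of all genes did). With quantile normalization 5 did, Wnt2, Wnt4, Wnt9a, Wnt10a and Wnt16 (14% of all genes did). Wnt3 and Wnt3a overlapped between the lines under both of these scalings. In bulk RNA, fewer cells that make a ligand and less of its RNA per cell cannot be told apart.

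Wnt4, which guides axons in the spinal cord, had the largest difference among the members. It read 178 and 68.8 in LIN28A cells, against 212 and 252 in control cells. The log2 difference was -0.94 ± 0.45 SE, and the gap was wider in number 2, with -1.66 there and -0.23 in number 1. Both LIN28A arrays lay below both control arrays, and without LIN28A array 2 the difference was -0.35. Wnt3, a ligand of the primitive streak and the neural tube, read 23.3 and 15.6 in LIN28A cells, against 47.7 and 30.6 in control cells. Its difference of -0.63 ± 0.32 SE was of like size in the numbers, -0.70 and -0.56, and lay between -0.40 (without control array 1) and -0.85 (without control array 2). Wnt3 was read by a probe set of the x type, which by Affymetrix's naming can take up related transcripts. Wnt3a, the close relative of Wnt3 that is made in the dorsal midline and the tail bud, read 10.6 and 3.60 in LIN28A cells, against 20.5 and 11.0 in control cells. It differed by -0.46 ± 0.33 SE, and by -0.46 within each number, but by -0.24 without LIN28A array 2.

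The windows around the starts of Wnt4 and Wnt3, the ligands with the largest differences, are shown as RefSeq gives them for GRCm38.p6, from 250 bases before the start to 50 after it. They lie at chr4:137277385-137277684 and chr11:103773925-103774224, both on the plus strand. Capitals mark a core TCF/LEF motif, searched on both strands for CTTTGAA, then for CTTTGAT, then for CTTTGTA and then for CTTTGTT.
Wnt4: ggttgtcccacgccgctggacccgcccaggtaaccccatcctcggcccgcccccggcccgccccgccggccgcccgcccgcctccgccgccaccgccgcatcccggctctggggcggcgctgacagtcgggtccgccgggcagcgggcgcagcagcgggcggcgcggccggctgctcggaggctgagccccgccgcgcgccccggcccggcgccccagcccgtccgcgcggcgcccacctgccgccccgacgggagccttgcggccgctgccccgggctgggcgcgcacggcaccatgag
Wnt3: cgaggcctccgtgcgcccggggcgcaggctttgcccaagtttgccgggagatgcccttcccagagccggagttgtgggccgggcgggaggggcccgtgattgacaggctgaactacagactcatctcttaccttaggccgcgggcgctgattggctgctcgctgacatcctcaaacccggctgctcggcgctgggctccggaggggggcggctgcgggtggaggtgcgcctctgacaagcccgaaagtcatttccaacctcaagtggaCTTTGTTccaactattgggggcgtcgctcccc
The Wnt4 window held none of these letters and the Wnt3 window held 1, which begins at base 19 of the transcript. Of the members, 33 had 40 windows in the table, of which 8 held a motif, 20%, against 16.9% of all 32851 windows. A match is a description of letters, not a binding site.

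The 2 ligands with both LIN28A arrays above both control arrays were Wnt1 and Wnt6. Wnt1, the signal of the midbrain and the dorsal neural tube, read 61.6 and 61.0 in LIN28A cells, against 49.9 and 38.5 in control cells. It differed by 0.37 ± 0.29 SE, with 0.24 in number 1 and 0.50 in number 2. Wnt6, which is expressed in surface ectoderm, read 16.5 and 28.1 in LIN28A cells, against 13.2 and 14.8 in control cells, a difference of 0.34 ± 0.30 SE that was 0.12 without LIN28A array 2 and 0.56 without LIN28A array 1. Both gaps were about as large as their standard errors.

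The other tested ligands overlapped between the lines, and all but Wnt5b had opposite signs in the replicate numbers. Wnt7a, a ligand of the ventricular zone and of neurons, read 24.5 and 42.8 in LIN28A cells, against 9.40 and 83.6 in control cells. Its difference was 0.67 in number 1 and -0.76 in number 2, and the mean of -0.04 became 0.18 under quantile normalization and 0.08 under median centring. Wnt7b, its paralogue, read 33.5 and 35.7 in LIN28A cells, against 27.4 and 86.1 in control cells, so control array 2 stood above the other arrays for both genes. Without it, Wnt7a differed by 0.94 and Wnt7b by 0.22. The summed level of the neuronal marker genes was also highest in control array 2, at 3859, against 1601 and 3157 in the LIN28A arrays and 2658 in control array 1, and its part in these values was not tested. Wnt5a, a ligand of the branch that acts without beta-catenin, read 15.2 and 47.6 in LIN28A cells, against 40.6 and 41.1 in control cells, with LIN28A array 1 apart from the rest. Wnt5b, its paralogue, followed the replicate number, with 100.4 and 32.5 in LIN28A cells, against 80.4 and 28.7 in control cells. Both numbers 1 lay above both numbers 2. Wnt11, another ligand of that branch, read 7.40 and 10.0 in LIN28A cells, against 21.5 and 4.00 in control cells.

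The remaining 9 ligands, Wnt2, Wnt2b, Wnt8a, Wnt8b, Wnt9a, Wnt9b, Wnt10a, Wnt10b and Wnt16, fell under the filter on low values and read 15.1 or less on every array. They were not tested. Of them, 5 (Wnt2, Wnt2b, Wnt9a, Wnt10a and Wnt16) had both LIN28A arrays below both control arrays. Counting the 14 members of every class under the filter, 7 lay below in this way and 1 above, where genes under the filter did so in 22.5% and 6.30% of cases. Of the 33 members past the filter, 5 lay below and 6 above, against 16.6% and 11.5% of such genes. Their median was 0.06, against -0.21 for the 14. Of the 12 members below on both arrays, 7 were thus genes with low readings. Without detection calls in the table, it is unknown which of these readings exceeded background.

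Several ligand genes are neighbours in the mouse genome, as Wnt1 with Wnt10b, Wnt6 with Wnt10a, Wnt3 with Wnt9b and Wnt3a with Wnt9a. In each pair the first gene passed the filter and the second did not. The differences of the first genes were 0.37, 0.34, -0.63 and -0.46, and those of their neighbours were 0.05, -0.44, -0.14 and -0.20. Wnt3 and Wnt9b overlap in the RefSeq annotation.

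The 9 Frizzled genes, membrane proteins that carry the Wnt binding domain, all passed the filter, and their median difference was 0.003. Fzd5 had both LIN28A arrays above both control arrays, and Fzd2 and Fzd6 had them below, 1 and 2 of 9 genes, against 10.0% and 18.3% of all genes. Fzd5, a receptor of the early embryo and the eye field, read 7.1 and 25.9 in LIN28A cells, against 1.8 and 6.0 in control cells. Its difference was 0.65 ± 0.38 SE, and its value passed 16 on LIN28A array 2 alone. Without that array it fell under the filter on low values. Fzd5 was thus tested only through the high reading of a LIN28A array. Fzd6, a receptor of the planar polarity branch, read 104 and 122 in LIN28A cells, against 157 and 134 in control cells, a difference of -0.32 ± 0.29 SE. At its other probe set Fzd6 differed by -0.28, with arrays that overlapped.

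Fzd2 showed how far probe sets of 1 gene can part. At the probe set with the highest mean it read 367 and 285 in LIN28A cells, against 437 and 384 in control cells, which differed by -0.33 ± 0.30 SE (-0.15 without LIN28A array 2). At its other probe sets it differed by 0.22 and 0.15, and the arrays of the lines overlapped. Fzd3, which guides axons, lay below 0 at each of its 4 probe sets, at -0.21, -0.58, -0.29 and -0.36. The first of these read 279 and 160 in LIN28A cells, against 322 and 190 in control cells, with more distance between the numbers than between the lines. Of the 17 members with more than 1 probe set, 6 had probe sets on either side of 0.

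Fzd7, a receptor of embryonic stem cells and progenitors, read 166 and 386 in LIN28A cells, against 207 and 285 in control cells. The LIN28A arrays lay at both ends, and the difference was -0.30 in number 1 and 0.42 in number 2. Fzd8, of the anterior neural plate, read 78.5 and 86.7 in LIN28A cells, against 127 and 72.6 in control cells. Fzd9 read 69.7 and 58.1 in LIN28A cells, against 66.1 and 37.3 in control cells, and Fzd4 read 61.1 and 19.3 in LIN28A cells, against 37.8 and 27.4 in control cells. Fzd1 stayed between 8.10 and 21.0 on all arrays. None of these 5 separated the lines.

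Among the secreted antagonists, Sfrp1, Sfrp2, Sfrp4 and Frzb each differed by 0.28 or less. Sfrp2, a Wnt-binding protein of the neural tube, read 169 and 200 in LIN28A cells, against 147 and 150 in control cells. The LIN28A arrays both lay above the control arrays, with a difference of 0.28 ± 0.28 SE, and it was the 1 antagonist of 9 to do so, against 10.0% of all genes. Sfrp1, its relative in neural progenitors, read 144 and 167 in LIN28A cells, against 128 and 157 in control cells, a difference of 0.12 ± 0.29 SE. Its other probe sets differed by -0.38, 0.17 and 0.46. Frzb, also called Sfrp3, read 30.2 and 18.6 in LIN28A cells, against 23.3 and 17.2 in control cells, with arrays that overlapped. Sfrp4 stayed between 10.7 and 20.0 on all arrays.

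The Dickkopf genes and Sfrp5 were low throughout. Dkk1, the antagonist of head induction, read 8.70 and 10.9 in LIN28A cells, against 13.4 and 5.60 in control cells, and its arrays overlapped. Dkk2, Dkk3, Dkk4 and Sfrp5 fell under the filter and read at most 14.2. Of these, Dkk3 and Sfrp5 had both LIN28A arrays below both control arrays, 2 of the 9 antagonists, against 18.3% of all genes. At its other probe set, which had nearly the same mean, Dkk3 overlapped between the lines. It read 4.6 and 2.2 there in LIN28A cells, against 10.4 and 1.0 in control cells. The class median was 0.03, with -0.14 in number 1 and 0.06 in number 2.

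R-spondins were represented by Rspo1 and Rspo2. Rspo1, made in the roof plate of the neural tube, read 38.2 and 45.6 in LIN28A cells, against 32.2 and 27.3 in control cells, and the LIN28A arrays both lay above the control arrays. It differed by 0.34 ± 0.28 SE, with 0.17 in number 1 and 0.51 in number 2. Rspo2 read 4.40 and 8.90 in LIN28A cells, against 13.6 and 7.70 in control cells, and its arrays overlapped.

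The feedback genes and the transcription factors lay above 0 as classes, at medians of 0.15 and 0.33, the second of which was 0.17 without LIN28A array 2 and 0.59 without LIN28A array 1. The feedback median was 0.05 in number 1 and 0.09 in number 2. That of the transcription factors was 0.07 in number 1 and 0.68 in number 2. The medians of the 2 classes were 0.22 and 0.40 under quantile normalization, and 0.28 and 0.46 under median centring. These scalings also raised the median of all genes, from -0.06 to 0.003 and 0.07, so staying above 0 is no separate evidence. Under either scaling Nkd2 and Axin1 joined Nkd1 with both LIN28A arrays above both control arrays, 3 of the 4 feedback genes. Of all genes, 14.9% did so with quantile normalization and 17.9% with median centring. However, Nkd2 read only 8.0 to 10.9 as deposited, close to the filter on low values. At its other probe set Axin1 differed by 0.01 as deposited, with arrays that overlapped. Each class holds only 4 genes, and in each 1 gene (Nkd1 and Lef1) had both LIN28A arrays above both control arrays as deposited, where 10.0% of all genes did.

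Axin2, the scaffold gene that beta-catenin and TCF switch on in most tissues and the usual readout of the pathway, read 292 and 269 in LIN28A cells, against 415 and 262 in control cells. Control array 1 stood apart and the other arrays lay within 262 to 292, with a log2 difference of -0.22 ± 0.33 SE that was 0.09 without control array 1. Axin1, the constitutive scaffold, read 245 and 271 in LIN28A cells, against 179 and 255 in control cells, a difference of 0.25 ± 0.31 SE that was 0.01 without control array 1. Nkd1, a Wnt-induced inhibitor of Dishevelled, read 81.9 and 104.9 in LIN28A cells, against 77.0 and 41.6 in control cells. Its difference of 0.57 ± 0.35 SE was 0.07 in number 1 and 1.07 in number 2. Leaving out control array 2 gave 0.23, and the LIN28A arrays both lay above the control arrays. Nkd2, its paralogue, stayed between 8.0 and 10.9 on all arrays.

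Sp5, a zinc finger factor that is a direct target of Wnt signalling in mouse embryos and stem cells, read 44.2 and 31.7 in LIN28A cells, against 31.8 and 7.20 in control cells. Its difference of 0.69 ± 0.42 SE was 0.33 in number 1 and 1.04 in number 2. The lines overlapped, since LIN28A array 2 lay just under control array 1, and without control array 2 the difference was 0.16. The Dkk1 window, not shown, held 2 of the motifs, which begin 117 and 98 bases before its start. The Sp5 window, chr2:70474673-70474972 on the plus strand of GRCm38.p6, also held 2 of the motifs and is shown with them in capitals. They begin 222 bases (on the minus strand) and 104 bases (on the plus strand) before the start.
Sp5: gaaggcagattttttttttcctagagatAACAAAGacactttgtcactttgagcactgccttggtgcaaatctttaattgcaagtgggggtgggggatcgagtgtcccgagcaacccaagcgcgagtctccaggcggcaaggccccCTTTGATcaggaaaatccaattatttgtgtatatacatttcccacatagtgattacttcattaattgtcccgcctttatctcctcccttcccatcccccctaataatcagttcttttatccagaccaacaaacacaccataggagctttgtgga
Among the other transcription factor and feedback genes, Tcf7l2 held 1 motif, and the windows of Axin2 and Nkd1 held none. Lef1 held 1 motif, in its window that begins at chr3:131156044. Its windows that begin at chr3:131110047, chr3:131110073 and chr3:131112541 held none.

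Tcf7l1, also called Tcf3, the TCF that holds back Wnt targets in pluripotent cells, read 147 and 317 in LIN28A cells, against 171.2 and 181.5 in control cells. The LIN28A arrays lay on either side of the controls, and without LIN28A array 2 the difference of 0.28 became -0.24. Tcf7l2, a TCF of many tissues, had the same layout, with 43.2 and 122 in LIN28A cells, against 67.4 and 75.1 in control cells. Lef1, itself a target of the pathway, read 10.3 and 4.30 in LIN28A cells, against 1.8 and 1.6 in control cells, and fell under the filter. The lines did not overlap, but every value lay under the pseudocount of 16.

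**Figure D2:**
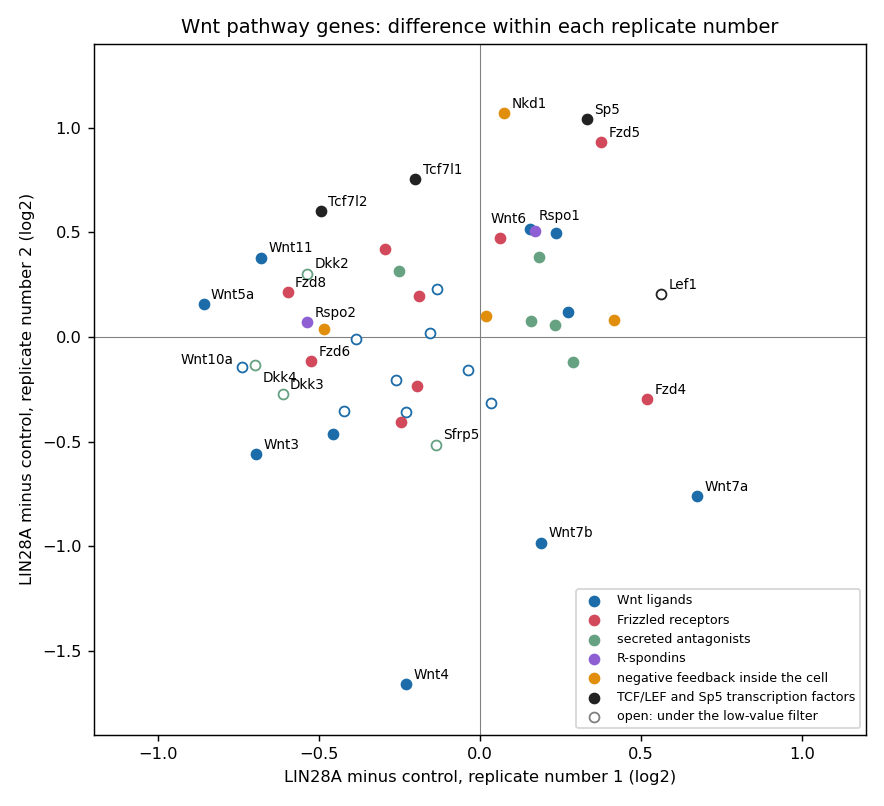
LIN28A minus control in log2(intensity + 16) within replicate number 1 (horizontal) and within number 2 (vertical), 1 point per gene, coloured by class and open where the gene fell under the filter on low values. In the upper right, 14 genes were higher in LIN28A cells within both numbers, in the lower left 15 were lower, and the other 18 were split between the numbers.

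Within replicate numbers, 14 of the 47 members were higher in LIN28A cells in both numbers, against 21.6% of all genes, and 15 were lower in both, against 33.7%. The other 18 had opposite signs in the numbers. Of the ligands, 9 were lower in both numbers and 3 were higher in both (Wnt1, Wnt5b and Wnt6). Of the 4 feedback genes, 3 were higher in both (Axin1, Nkd1 and Nkd2). The median of the members was -0.19 in number 1 and 0.07 in number 2, and that of all genes was -0.12 and 0.007.

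Beyond these families, the genes that make, receive and relay Wnt signals were split in direction. Of 19 listed genes of Wnt secretion and the coreceptors, 16 were measured, with a median of 0.03, and limma's test called 0 of them. Ryk and Rnf43 had both LIN28A arrays above both control arrays and Wls and Ror1 had them below, 2 in each direction, against 10.0% and 18.3% of all genes. Wls, the carrier that takes Wnts to the cell surface, read 714 and 986 in LIN28A cells, against 1193 and 1090 in control cells, a difference of -0.44 ± 0.31 SE. Porcn, which adds the lipid, read 40.5 and 84.8 in LIN28A cells, against 73.5 and 74.5 in control cells. The coreceptor Lrp6 read 334 and 354 in LIN28A cells, against 289 and 360 in control cells, and Lrp5 stayed between 6.2 and 10.8. Gpc4, a glypican that binds Wnts, differed by 0.68, but by 0.05 without LIN28A array 2. The pseudokinase receptor Ryk differed by 0.30, Notum, which removes the lipid, by 0.23 and Kremen1, a Dkk receptor, by -0.38. Of 9 other secreted modulators 7 were measured, and 0 separated the lines. Igfbp4, an IGF-binding protein that also blocks Lrp6, differed by 0.60, with 0.06 in number 1 and 1.13 in number 2, and Apcdd1, Ndp and Wif1 by 0.04, -0.29 and -0.03 (Wif1 by 0.12 under quantile normalization and 0.09 under median centring).

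Of 25 genes of the beta-catenin cascade 21 were measured, with a median of -0.05, and limma's test called 0. Ctnnb1, the beta-catenin gene, read 3576 and 3749 in LIN28A cells, against 4422 and 3414 in control cells. Its difference of -0.09 ± 0.30 SE became 0.18 under quantile normalization and 0.04 under median centring. Gsk3b, Csnk2a1, Cby1 and Ctnnd1 had both LIN28A arrays above both control arrays, and Btrc and Fbxw11 had them below, 4 and 2 of 21, against 10.0% and 18.3%. With median centring 7 lay above and 0 below, against 17.9% and 7.50%. Ctnnd1, the p120 catenin gene, read 74.5 and 49.3 in LIN28A cells, against 27.3 and 40.2 in control cells, a difference of 0.64 ± 0.33 SE. Gsk3b, the kinase that marks beta-catenin, differed by 0.43 but by 0.06 without control array 1, and the kinase gene Csnk2a1 differed by 0.28. The ubiquitin ligase genes Btrc and Fbxw11, which clear beta-catenin, differed by -0.21 and -0.22 and the Dishevelled gene Dvl2 by -0.30 (-0.01 without control array 2).

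Of 14 nuclear cofactors 13 were measured, with a median of 0.10, and limma's test called 0. Pygo2, which links beta-catenin to chromatin through Bcl9, read 275 and 272 in LIN28A cells, against 227 and 215 in control cells, and was the 1 gene of 13 above on both arrays (10.0% of all genes were). Ctbp2, a corepressor that TCFs can recruit, read 489 and 524 in LIN28A cells, against 678 and 763 in control cells, and was the 1 gene below (18.3% were). Pygo2 differed by 0.29 and Ctbp2 by -0.49 ± 0.28 SE, each by like amounts in the numbers. Bcl9, Tle5 and Hdac1 differed by 0.29, 0.47 and -0.06, and overlapped between the lines (Bcl9 was 0.03 without control array 2 and Hdac1 0.07 under median centring). Of 22 genes of the planar polarity and calcium branches 19 were measured, with a median of -0.04 and 0 calls. Nfatc3, a calcium-regulated factor, had both LIN28A arrays above both control arrays, with 233 and 239 in LIN28A cells, against 159 and 168 in control cells. Its difference was 0.49 ± 0.28 SE. Camk2b, Camk2g and Nfatc1 lay below on both arrays, 3 of 19, against 18.3% of all genes. Camk2b, a kinase gene with high expression in neurons, differed by -0.50, Nfatc1 by -0.36, Camk2d by -0.32, and the GTPase genes Rac1 and Rhoa by 0.41 and 0.20. Without LIN28A array 2 Rac1 differed by 0.06.

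**Figure D3:**
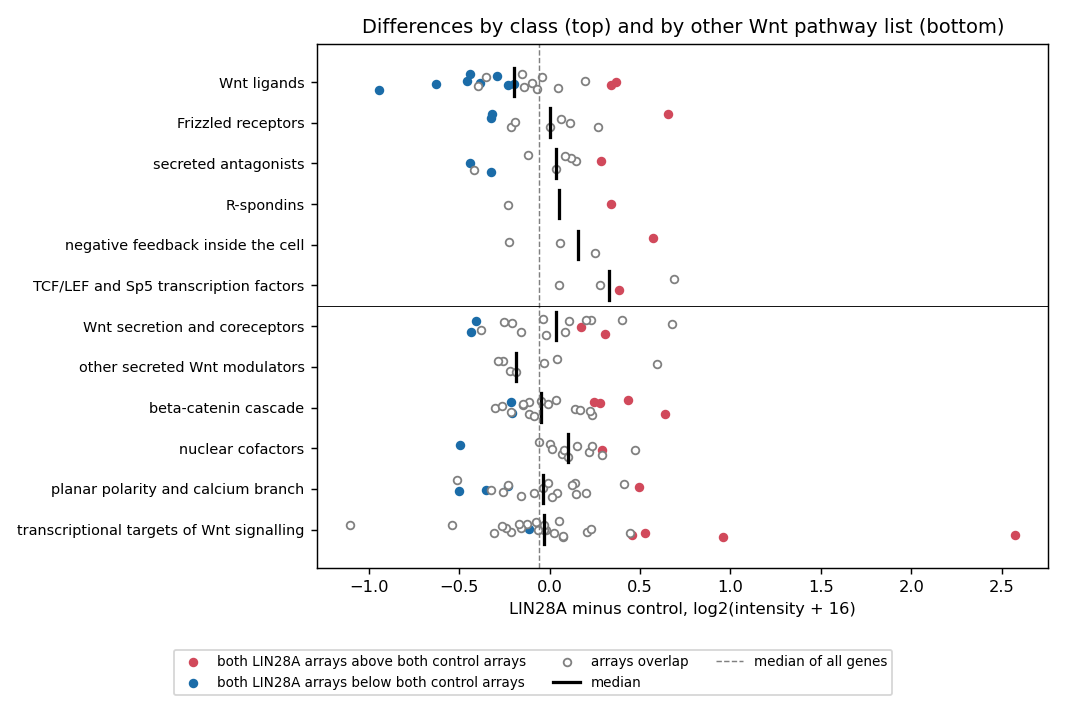
LIN28A minus control in log2(intensity + 16) for each gene of the 6 classes (top) and of the 6 other pathway lists (bottom), red where the LIN28A arrays both lay above the control arrays, blue where both lay below and open where they overlapped. Black bars are list medians and the dashed line is the median of all genes, -0.06; the points spread to both sides of it in every class but the transcription factors, whose 4 genes lie to its right.

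Genes that Wnt signalling switches on in various tissues were split in direction too. Of 29 listed, 26 were measured, with a median of -0.03 (0.08 under quantile normalization and 0.10 under median centring), and limma's adjusted test called 0. Sall4 and Ccnd1, 2 genes, were higher at an unadjusted p under 0.05 and 0 were lower, against 0.442% and 1.21% of probe sets. Both also belong to other programmes, Sall4 to pluripotent cells and Ccnd1 to let-7 targets. Ccnd1, the cyclin D1 gene, read 481 and 371 in LIN28A cells, against 175 and 250 in control cells, a difference of 0.96 ± 0.33 SE. Myc and Tnfrsf19 were the other genes with both LIN28A arrays above both control arrays, 4 in all with Sall4 and Ccnd1, against 10.0% of all genes. Tnfrsf19, also called Troy, read 389 and 424 in LIN28A cells, against 299 and 256 in control cells, and differed by 0.53 ± 0.28 SE. Neurog1 was the 1 gene below on both arrays, at -0.11. Gbx2, a homeobox gene of the anterior hindbrain, read 29.3 and 53.0 in LIN28A cells, against 52.6 and 194 in control cells, a difference of -1.10 ± 0.57 SE that was -0.30 without control array 2. En2 and Id2 differed by -0.54 and -0.16.

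Markers of other cell types are set here against the shares of all genes, 10.0% above and 18.3% below on both arrays. The summed level of 8 fibroblast and smooth muscle genes was 289 and 364 in LIN28A cells, against 200.3 and 107 in control cells, and 3 of the 8 lay above on both arrays, among them Col3a1 with 70.2 and 148 in LIN28A cells, against 48.3 and 10.9 in control cells. Of the same 8 genes, 5 read under 16 on every array (Col1a1, Tagln, Lum, Postn and Thy1). The summed level of 8 neuronal genes was 1601 and 3157 in LIN28A cells, against 2658 and 3859 in control cells, with 3 of 8 below on both arrays, though Tubb3 read 372 and 644 in LIN28A cells, against 508 and 540 in control cells. Of 8 genes of the dorsal neural tube and neural crest, where Wnt1 and Wnt3a are made, 0 lay above and 1 below, and their sum was 2017 and 1202 in LIN28A cells, against 1834 and 1530 in control cells. Of 7 measured mesoderm genes 1 lay above and 0 below, of 8 endoderm genes 0 and 2, of 8 neural progenitor genes 1 and 1, and of 8 embryonal carcinoma genes 2 and 1. The progenitor gene above was Hes5, with 924 and 337 in LIN28A cells, against 186 and 194 in control cells, while Pax6 read 212 and 111 in LIN28A cells, against 106 and 199 in control cells. The embryonal carcinoma genes above were Sall4, with 194 and 83.1 in LIN28A cells, against 16.4 and 2.1 in control cells, and Utf1, with 16.4 and 16.5 in LIN28A cells, against 5.5 and 3.8 in control cells. Nanog read 10.4 and 37.8 in LIN28A cells, against 70.8 and 5.70 in control cells. The mesoderm sums were 72.6 and 174 in LIN28A cells, against 106 and 53.3 in control cells, and the endoderm sums 181.5 and 416 in LIN28A cells, against 245 and 427 in control cells. Single genes carried much of these sums. Lama1 gave 127 and 336 of the endoderm sums in LIN28A cells, against 167 and 383 in control cells. Eomes gave 104.9 of the mesoderm sum in LIN28A array 2. On every array 3 mesoderm and 4 endoderm genes read under 16. Zic1 gave 1404 and 828 of the dorsal neural tube and neural crest sums in LIN28A cells, against 1066 and 1146 in control cells. The part of these cell types in the Wnt gene values was not tested.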

How the data were processed

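Per the labels' protocols, oligo(dT)-primed cDNA from total RNA was transcribed into biotin-labelled cRNA and put on Affymetrix arrays with a single label. In the table that the authors deposited, each probe set has a linear intensity in each array. The trimmed means of the 4 arrays lay between 148.6 and 149.4, so the values were kept as the authors scaled them. No source used here names the summary software.

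Values were turned into log2(intensity + 16), a scale that makes differences of low genes look smaller. A probe set with a mean under the 30th percentile (about 8.04 in intensity) was not tested, which left 15838 of 22626. LIN28A was compared with control in limma 3.58.1 (R 4.3.3) with lmFit and eBayes and no block. Benjamini-Hochberg adjustment ran over all tested probe sets, with a threshold of 0.05. The test was run on simulated data with a fixed noise level and changes larger than that of any member. That run does not cover differences of the size seen in the members. With 2 arrays against 2, an exact permutation test of 1 gene cannot go under p = 0.333. The labels do not say that the repeats came from separate cultures, so p-values cover only the spread between these arrays, and the number of arrays limits precision.

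Each gene was represented by its probe set with the highest mean. Of 20380 probe sets with 1 symbol in the platform annotation, 20351 matched the RefSeq gene table, and 0 symbols needed an update. Members, lists and tests were chosen with earlier results of these data known. All members are given. From each other pathway list up to 3 genes in each direction with the smallest p are named, and Ctnnb1, Lrp5, Lrp6, Porcn, Wls and Ccnd1 always. The other scalings, pseudocounts, filters and left-out arrays are under the closing section. Protein identity between family members was not analysed here.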

Additional observations from a re-analysis of the deposited data

How the results depend on the processing

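The adjusted test called 0 members under each setting run, and 0 probe sets in each direction except with the replicate number as a block, which called 1 higher. The deviations of arrays with the same number correlated (r = 0.59 over probe sets), though the labels link such arrays by the number alone. Their quality readings were alike too. The 3' to 5' ratio for Gapdh was 1.12 (LIN28A) and 1.15 (control) in number 1, against 0.82 and 0.78 in number 2. The 18S RNA reading was 69.3 and 136 in number 1, against 11.1 and 9.3 in number 2. The part of RNA quality in the correlation was not tested. At an unadjusted p under 0.05, limma with the replicate block gave 468 higher and 890 lower of the 15838 tested probe sets, against 70 and 192 without it. Of the 33 tested members it gave 2 higher (Fzd5 and Sp5) and 2 lower (Wnt3 and Wnt4). Each had an adjusted p of 0.57 in that fit. As Fzd5 passed the filter on low values only through the high reading of LIN28A array 2, its count gives no support. Settings that keep all arrays and use no block gave 51 to 167 higher and 89 to 362 lower probe sets. The filter at the 30th percentile on the counts and medians was chosen after seeing the data. The cause of each move below was not tested.

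Members above on both arrays numbered 13 with quantile normalization (14.9% of all genes) and 11 with median centring (17.9%). Those below numbered 3 with median centring (7.50%) and 5 when filtered at the 30th percentile (16.6% of genes past that filter). When filtered at the 50th percentile, 4 lay above and 3 below. With 3 arrays, where a separation is easier to meet, 12 to 18 lay above and 15 to 22 below. The shares of all genes at the 50th percentile and with 3 arrays were not computed. Those counts therefore show nothing particular to the members. The ligand median was -0.49 with pseudocount 1, -0.069 with pseudocount 64 and with median centring, -0.11 with quantile normalization, -0.10 when filtered at the 50th percentile, -0.25 when filtered at the 30th, and -0.35 to -0.18 without 1 array. The antagonist median was 0.20 when filtered at the 50th percentile, with a range of -0.13 to -0.016 without 1 array. The feedback median was 0.22 (quantile), 0.28 (median centring), 0.20 (pseudocount 1), 0.11 (pseudocount 64), 0.098 (probe sets averaged), 0.25 (50th percentile) and 0.059 to 0.22 without 1 array. That of the transcription factors was 0.76 (pseudocount 1), 0.18 (pseudocount 64), 0.16 (50th percentile) and 0.17 to 0.59 without 1 array, and that of the Frizzled genes -0.20 (50th percentile). Among the other lists, secreted modulators had a median of 0.32 at the 50th percentile; the beta-catenin cascade -0.011 (quantile), 0.079 (median centring), -0.0050 (probe sets averaged) and -0.14 to 0.21 without 1 array; nuclear cofactors 0.23 with median centring, 0.23 with pseudocount 1 and -0.21 to 0.34 without 1 array; planar polarity 0.090 (median centring), 0.013 (50th percentile) and -0.16 to -0.043 without 1 array; and secretion and coreceptors -0.21 to 0.15 without 1 array. With median centring 7 cascade genes lay above and 0 below, and 4 planar polarity and calcium genes above and 1 below. Of all genes, 17.9% lay above and 7.50% below in that setting.

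Some genes turned sign. When each gene's probe sets were averaged, Fzd2 differed by 0.016, Fzd4 by -0.059, Fzd7 by -0.17, Id2 by 0.12 and Lrp6 by -0.13. Fzd1 was -0.056 and Wnt7a 0.17 with pseudocount 1. Wnt7a was 0.18 and 0.083, Wif1 0.12 and 0.093 and Ctnnb1 0.18 and 0.042 with quantile normalization and median centring, and Hdac1 0.070 with median centring. Leaving out 1 array, with no block and unequal numbers between the lines, gave these ranges: Axin2 -0.54 to 0.092, Dkk1 -0.19 to 0.26, Frzb -0.062 to 0.36, Fzd1 -0.31 to 0.31, Fzd3 -0.59 to 0.16, Fzd4 -0.45 to 0.67, Fzd7 -0.51 to 0.63, Fzd8 -0.54 to 0.15, Fzd9 -0.043 to 0.58, Nkd2 -0.014 to 0.13, Sfrp1 -0.016 to 0.25, Sfrp4 -0.13 to 0.30, Tcf7l1 -0.24 to 0.79, Tcf7l2 -0.56 to 0.66, Wnt11 -0.60 to 0.30, Wnt5a -0.87 to 0.16, Wnt5b -0.44 to 0.83, Wnt7a -1.03 to 0.94 and Wnt7b -1.01 to 0.22. Outside the families they were Notum -0.054 to 0.51, Porcn -0.67 to 0.16, Igfbp4 -0.34 to 1.53, Apcdd1 -0.52 to 0.60, Wif1 -0.20 to 0.13, Tle5 -0.26 to 1.21, Hdac1 -0.28 to 0.17, Rhoa -0.16 to 0.56, En2 -1.61 to 0.53, Id2 -0.36 to 0.042, Ctnnb1 -0.27 to 0.10, Lrp5 -0.012 to 0.22 and Lrp6 -0.063 to 0.24. Wnt1, Wnt3, Wnt3a, Wnt4, Wnt6, Fzd2, Fzd6, Sfrp2, Rspo1, Axin1, Nkd1 and Sp5 kept their sign without any 1 array. Fzd5 and Rspo2 did so in 3 of 4 cases and fell under the filter without LIN28A array 2. Gpc4 (0.049 to 1.31), Rac1 (0.063 to 0.76), Bcl9 (0.033 to 0.54) and Dvl2 (-0.60 to -0.0098) kept their sign too. The counts and medians of lists use no filter, so no separate setting without one exists for them. Where 1 array of a line is left, its spread is assumed to be that of the other line.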
